A study of Mus musculus with 3 samples.

Results

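The mRNAs of 10 subunits of the CCR4-NOT deadenylase complex (Cnot1, Cnot2, Cnot3, Cnot6, Cnot6l, Cnot7, Cnot8, Cnot9, Cnot10 and Cnot11) were followed into RNA immunoprecipitates of YTHDF2. The members were chosen by gene name, as the rows of the deposited count table that carry these symbols, and all 10 were found among its 49997 genes. RNA immunoprecipitation sequencing (RIP-seq) was done in E14 cells, a line of mouse embryonic stem cells (ESCs), grown on gelatin with leukemia inhibitory factor and treated with Dox for 24 h. The groups were 1 input library and 2 libraries of RNA recovered with anti-YTHDF2 (IP replicates 1 and 2), so each ratio rests on the same input library. The study calls the comparison sample total RNA, and whether it came from the cleared lysate or from whole cells was not given in the sources used here. Per the study's description of its cell system, Dox switches on a Dux transgene, which pushes ESCs toward a state resembling the embryo at the 2-cell stage (2C-like). All 3 libraries carry this treatment, and untreated cells, YTHDF2-depleted cells and an IP with a control antibody were not analysed here. Whether the IP libraries came from separate cultures was not stated, so that p-values measure the spread between these samples, which may be technical.

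CCR4-NOT shortens the poly(A) tails of cytoplasmic mRNAs, the step that usually opens their decay. CNOT1 is the scaffold on which the other subunits assemble, and the complex holds a pair of exonucleases, 1 of the CCR4 type (CNOT6 or CNOT6L) and 1 of the CAF1 type (CNOT7 or CNOT8). YTHDF2 is a cytoplasmic reader of N6-methyladenosine (m6A) in mRNA and recruits CCR4-NOT by binding CNOT1. The comparison asked whether the mRNAs that encode this machinery were themselves recovered with YTHDF2, which is a separate matter from the binding of the proteins.

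The input library held 36986994 counts and the IP libraries 35259827 and 35888743 (replicates 1 and 2). All 9 ESC markers examined were above 1 CPM (counts scaled to the library size) in the input, from 261 CPM for Utf1 to 1806 CPM for Dppa5a, and the 6 markers of the 2C-like state lay between 7.60 and 840 CPM. Their summed level was 8429, 9040 and 8993 CPM for the ESC markers and 2085, 3408 and 3370 CPM for the 2C-like markers in input, IP replicate 1 and IP replicate 2. The ESC sum joins genes that went opposite ways. Pou5f1, Sox2 (685, 1345 and 1254 CPM), Klf4, Esrrb and Tdgf1 rose, while Dppa5a (1806, 1075 and 1107 CPM), Nanog, Zfp42 and Utf1 fell. Among the 2C-like markers, Zscan4c went from 522 to 1245 and 1222 CPM, and Usp17la from 276 to 285 and 297 CPM. The part of any marker difference in the subunit ratios was not tested. Of 7 fibroblast markers, 2 passed 1 CPM in the input (Thy1 and Col1a1), while Col3a1 and Dcn were at 0 in all 3 libraries. The summed fibroblast markers came to 29.2, 16.0 and 17.1 CPM in input, IP replicate 1 and IP replicate 2. The 6 markers of differentiated lineages lay between 1.27 and 10.1 CPM in the input, and their sum was 22.4, 54.7 and 44.7 CPM in the same order. Sox1 (10.1, 36.4 and 32.7 CPM) was the highest and carried most of the rise in the sum. Gata4 and Gata6 also rose in both IP libraries, while T (1.27, 1.22 and 0.334 CPM), Pax6 (3.00, 3.01 and 2.70 CPM) and Sox17 did not rise in both. These libraries set RNA recovered in IP against input RNA, and not cells of different treatments. Within the input, a bulk library, fewer cells with a transcript and less of it per cell cannot be told apart.

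Per length, the input held most Cnot3 mRNA and least Cnot6l mRNA among the subunits. Levels of different genes were compared as TPM (transcript levels, that is counts divided by exonic length and scaled to a fixed sum). In the input these were 108 TPM for Cnot3, 96.3 for Cnot9, 82.4 for Cnot1, 73.8 for Cnot10, 63.5 for Cnot8, 61.2 for Cnot11, 60.1 for Cnot2, 23.8 for Cnot7, 23.6 for Cnot6 and 4.94 for Cnot6l. The order has no replicate check, since there was 1 input library. In both IP libraries Cnot8 came first, at 92.2 TPM in each, followed by Cnot9, at 91.1 and 89.6 TPM. Cnot1 was in the seventh place there, at 31.0 and 30.9 TPM. Among neighbours in the IP order, only the ranges of Cnot7 (21.3 and 17.1 TPM) and Cnot6 (18.4 and 17.9 TPM) overlapped between the IP libraries. With the length of a reference transcript in place of the merged exons, an alternative chosen after seeing the data, Cnot1 moved from rank 5 in the input to ranks 8 and 7 in IP, and Cnot8 from rank 6 to rank 1 in both. Cnot2, in the seventh place of the input by merged exons, was at rank 2 there by this length, and at ranks 2 and 3 in IP.

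The subunit mRNAs were mostly lower in YTHDF2 IP than in the input. A call of enriched or depleted required a change of more than 2-fold together with an adjusted p under 0.05 in the quasi-likelihood test of edgeR. Of the 10 subunits, all of which passed the filter on low counts, 0 were enriched (0 also by DESeq2, and 0 at an unadjusted p under 0.05 with the same fold), against a background of 15.2% of the 19601 genes tested. The depleted calls were 3, for Cnot1, Cnot10 and Cnot6l, against a background of 14.0%. At an adjusted p under 0.05 and any fold, 9 subunits were lower in IP (background 30.1%) and 1, Cnot8, was higher (background 28.5%). Calls at any fold depend on how well a gene was counted, and 12620 of the 19601 genes averaged 100 counts or more. Without a test, both IP libraries lay below the input for 9 subunits, against 45.3% of all genes tested. The median log2 fold change of IP over input was -0.62 for the 10 subunits and 0.01 for all genes tested, whose middle range between quartiles ran from -0.72 to 0.81. With the GC trend of the ratios removed, the median of the subunits was -0.31 and 6 were lower at an adjusted p under 0.05. Taken by library, the subunits had medians of -0.63 and -0.65 (IP replicates 1 and 2). Together the 10 genes took 0.139% of all counts in the input (95% Wilson interval 0.138 to 0.141), and 0.0919% and 0.0908% in the IP libraries. Such intervals cover counting error only.

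**Figure D1:**
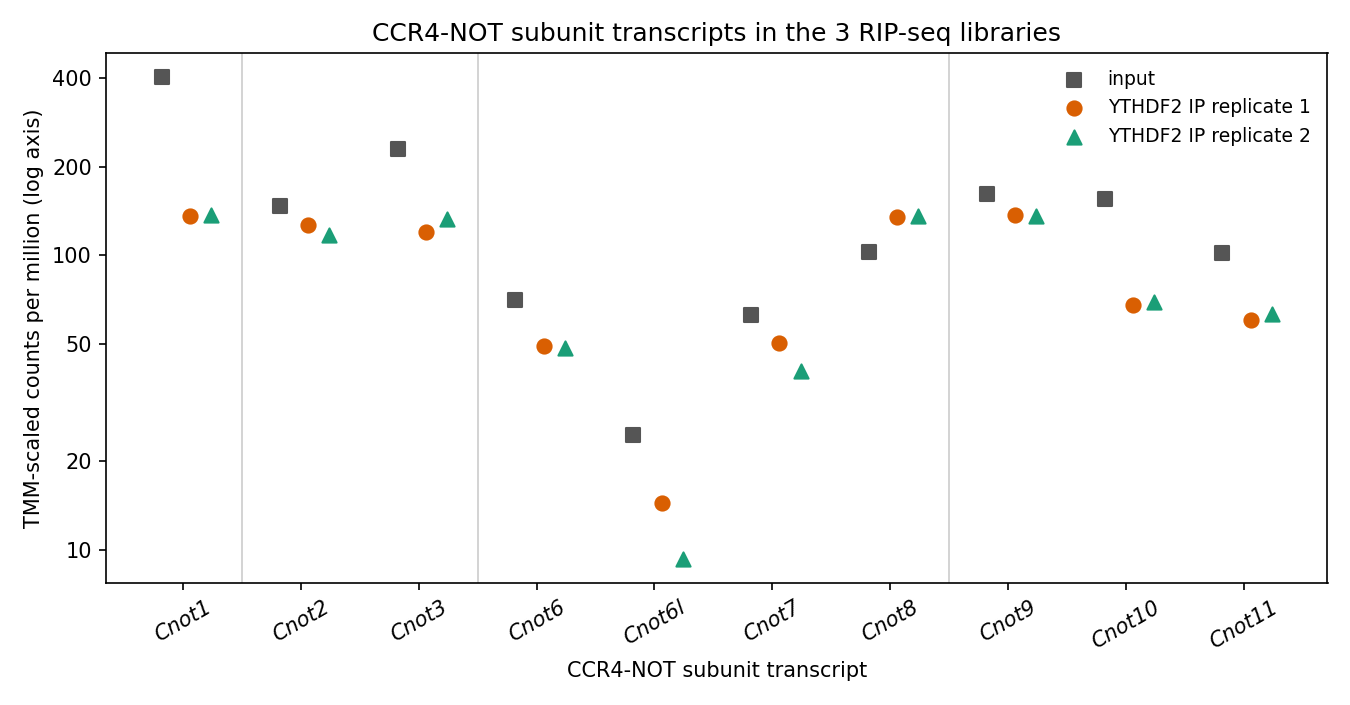
CPM after TMM scaling (log axis) of each CCR4-NOT subunit mRNA, with 1 point for the input and 1 for each of the 2 YTHDF2 IP libraries. Heights are to be compared within a gene, since CPM is not per length. Cnot1 goes from 402.5 CPM in the input to 136.4 and 136.7 CPM in IP, while Cnot8 lies higher in IP (134.7 and 135.6 CPM) than in the input (103 CPM).

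**Figure D2:**
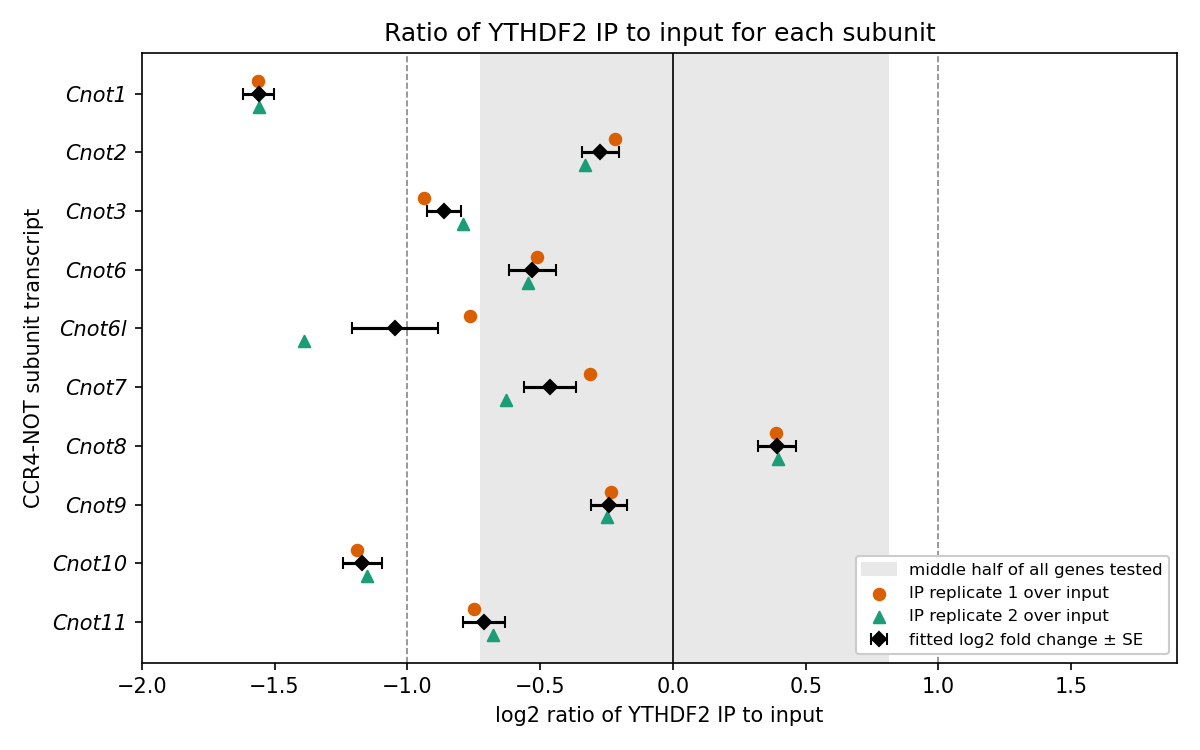
Log2 ratio of each YTHDF2 IP library to the input for the 10 subunits, with the fitted log2 fold change and its SE, and the shaded range between the quartiles of all genes tested. Cnot8 alone lies above 0 (0.39 and 0.40), and Cnot1 lies lowest, at -1.56 in both IP libraries.

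Cnot1, the scaffold gene, was lowered most among the subunits. Its 14233 input counts compared with 4922 and 5007 in IP replicates 1 and 2, or 402.5, 136.4 and 136.7 CPM after scaling. Both IP libraries lay close together and far under the input. The log2 ratio was -1.56 in each, and the fitted fold change was 2.95-fold lower (log2 -1.56 ± 0.0586 SE, edgeR adjusted p = 9.7e-38). Only 8.07% of the genes tested had a lower log2 fold change. Of the counts of the 10 subunits, Cnot1 took 27.6% in the input and 15.2% and 15.4% in IP. On merged exons it overlaps 4930513N10Rik over 781 bases and Setd6 over 79 bases on the opposite strand, 8.12% and 0.82% of its exonic length, and by the defaults of the counting tool reads over such stretches go to neither gene. Across 9984 genes averaging 10 CPM or more, the 3 whose pair of log2 ratios lay nearest to that of Cnot1 were Snx10, Luc7l2 and Esco2, at distances of 0.0067, 0.0106 and 0.0188. Their fitted log2 fold changes were -1.56, -1.56 and -1.55, values near that of Cnot1 because the genes were picked for this.

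The genes of the NOT module, Cnot2 and Cnot3, which encode the partners that bind the C-terminal part of CNOT1, were lower by unequal amounts. Cnot2 went from 5213 input counts to 4577 and 4290 in the IP libraries, and Cnot3 from 8137 to 4332 and 4876. Each gene was below its input in both IP libraries, Cnot3 further than Cnot2. The fitted log2 fold change was -0.27 ± 0.0694 for Cnot2 (edgeR adjusted p = 0.000455) and -0.86 ± 0.0654 for Cnot3 (edgeR adjusted p = 4.94e-20). Cnot3 lay just outside the 2-fold call, at 1.82-fold lower. It is also the subunit that shares most exonic sequence with other genes, 869 bases (20.8%) with Leng1 and 214 bases (5.11%) with Gm15927, both on the opposite strand. With the GC trend of the ratios removed, Cnot3 came to -1.12 and would be called depleted (adjusted p = 1.13e-15, range over its alternatives 7.87e-40 to 0.282).

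Cnot10 and Cnot11, whose products form the module at the N-terminal end of CNOT1, were also lower in both IP libraries. Cnot10 fell from 5477 counts to 2453 and 2554, and Cnot11 from 3595 to 2185 and 2325. Cnot10 was 2.25-fold lower in IP (log2 -1.17 ± 0.0725, edgeR adjusted p = 8.88e-25) and Cnot11 1.64-fold lower (log2 -0.71 ± 0.0791, edgeR adjusted p = 8.44e-13). Cnot10 was no longer called with the exon density trend removed (-0.90) or with the dispersion fixed at 0.1 (edgeR adjusted p = 0.121, range over its alternatives 7.79e-56 to 0.121). Although the products act as a pair, the ratio of Cnot11 exceeded that of Cnot10 by 0.44 and 0.47 on the log2 scale in IP replicates 1 and 2. With the exon density trend removed they lay closer, at -0.76 for Cnot11 and -0.90 for Cnot10. Cnot9 encodes a subunit that binds CNOT1 near its centre and serves as a docking surface for adaptors such as the TNRC6 proteins. Its 5695 input counts compared with 4947 and 4963 in the IP libraries, 1.18-fold lower (log2 -0.24 ± 0.0669, edgeR adjusted p = 0.00131). Per kilobase of merged exons it was the second most abundant subunit mRNA in the IP libraries, and by reference transcript length it ranked 3 and 4 there. The differences of Cnot2 and Cnot9 missed the threshold under several settings. With scaling by TPM the edgeR adjusted p was 0.116 for Cnot2 (range over its alternatives 0.000157 to 0.785). That of edgeR for Cnot9 was 0.226 (adjusted p range over its alternatives 0.000674 to 0.813). Cnot2 also missed it with the GC trend (-0.10) or the exon density trend (-0.07) removed, Cnot9 with scaling by total count (-0.14), and both with the dispersion fixed at 0.1.

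The CCR4-type exonuclease genes were lower in both IP libraries, although Cnot6 turned to 0.14 with the GC trend removed, and the pair of IP libraries differed most for Cnot6l. Cnot6 went from 2494 input counts to 1783 and 1771, with log2 ratios of -0.51 and -0.54 (fitted -0.53 ± 0.0879, edgeR adjusted p = 2.09e-07). For Cnot6l, the least abundant subunit mRNA, 869 input counts stood against 522 and 343 in IP. Its log2 ratios were -0.76 and -1.39, so that IP replicate 1 exceeded IP replicate 2 by 0.63, against an SD of 0.205 for this difference among the 12620 genes that averaged 100 counts or more. The fitted value was 2.07-fold lower (log2 -1.05 ± 0.162, edgeR adjusted p = 4.32e-07), just inside the call. IP replicate 1 alone gave -0.76 and IP replicate 2 alone -1.39, and the call was lost under 5 of the 12 alternatives with a test, among them scaling by total count (-0.95), scaling by TPM (-0.90) and removal of the GC trend (-0.43).

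The CAF1-type exonuclease genes went in opposite directions in the reported fit, though both lay above 0 (0.16 for Cnot7 and 0.27 for Cnot8) with the GC trend of the ratios removed. Cnot7 went from 2221 input counts to 1826 and 1488, with log2 ratios of -0.31 and -0.63 and a fitted value of -0.46 ± 0.0972 (edgeR adjusted p = 3.93e-05). Without the filter on low counts the edgeR adjusted p of Cnot7 was 0.057 (range over its alternatives 1.3e-06 to 0.615). Cnot8 instead went from 3644 input counts up to 4863 and 4964. It was the only subunit above its input, by 1.31-fold in the fit (log2 0.39 ± 0.0719, edgeR adjusted p = 1.99e-06), with log2 ratios of 0.39 and 0.40. Both IP libraries lay above the input for 44.2% of all genes tested, and below it for 45.3%. The distance from Cnot1 to Cnot8 came to 1.95 on the log2 scale in each IP library. In the deposited table Cnot8 also has 1161 bases of exon on an alternate scaffold of mm10, which were left out of its length here, and whether reads were lost to that copy was not tested.

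Shares within each paralog pair need no scaling between libraries, but they carry any effect of GC content, in which Cnot7 (41.1%) and Cnot8 (51.7%) differ. Cnot8 made up 62.1% of the counts of Cnot7 and Cnot8 in the input (95% Wilson interval 60.4 to 63.9, on halved counts because both mates of a read pair were counted), 72.7% in IP replicate 1 (71.2 to 74.2) and 76.9% in IP replicate 2 (75.5 to 78.4). The IP shares lay above the input interval, and also apart from each other. Cnot6l made up 25.8% of the counts of Cnot6 and Cnot6l in the input (23.8 to 28.0), 22.6% in IP replicate 1 (20.3 to 25.2) and 16.2% in IP replicate 2 (14.1 to 18.6). Here the interval of IP replicate 1 overlapped that of the input, and the interval of IP replicate 2 did not. Per kilobase of exon, the shares in input, IP replicate 1 and IP replicate 2 became 72.7%, 81.2% and 84.4% for Cnot8 and 17.3%, 15.0% and 10.4% for Cnot6l, in the same order of libraries as by counts. With 1 library against 2, an exact permutation test can go no lower than p = 0.333 (one-sided), so these differences were left as a description. The coding sequences of Cnot7 and Cnot8 were 70.9% identical and those of Cnot6 and Cnot6l 73.3%, with the longest identical run at 20 bases in each pair.

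**Figure D3:**
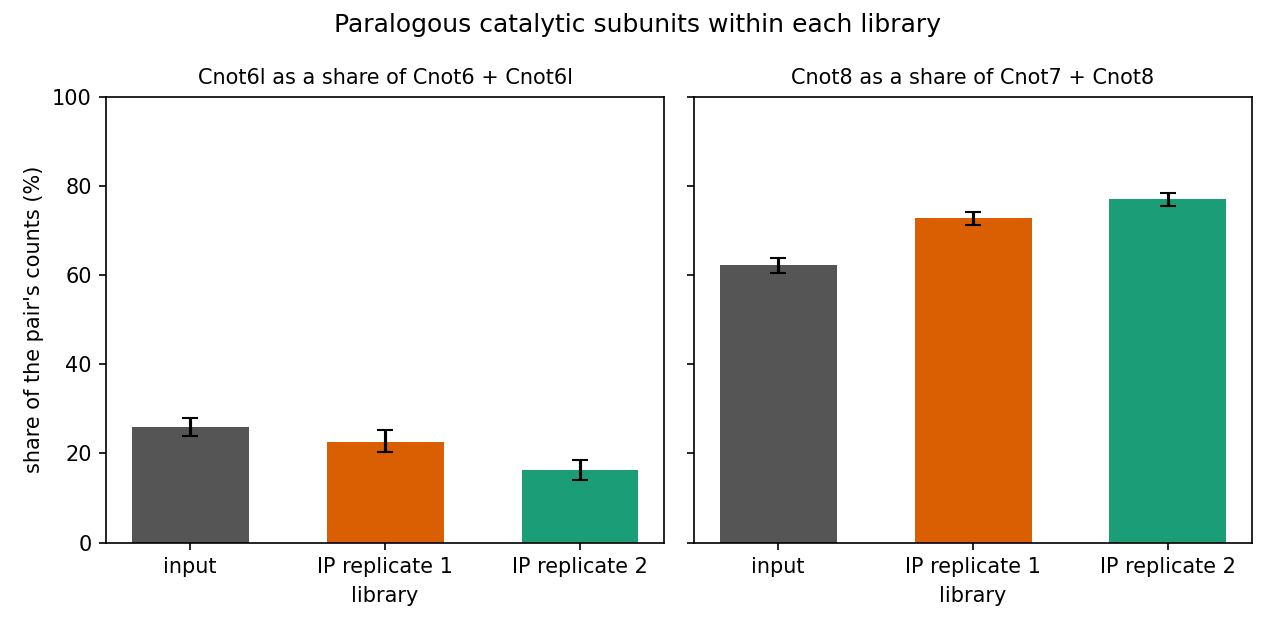
Share of Cnot8 among the counts of Cnot7 and Cnot8, and of Cnot6l among those of Cnot6 and Cnot6l, in percent for the input and the 2 YTHDF2 IP libraries, with 95% Wilson intervals on halved counts. The Cnot8 share is 62.1% in the input and 72.7% and 76.9% in IP, and the Cnot6l share 25.8%, 22.6% and 16.2%.

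The 10 subunit genes are spread over 7 chromosomes. On mm10 (GRCm38), Cnot1 lies at chr8:95718931-95808113 (minus strand) and Cnot7 at chr8:40492538-40515847 (minus). Cnot9 lies at chr1:74506036-74530842 (plus) and Cnot11 at chr1:39535701-39546881 (plus). Cnot6 lies at chr11:49671497-49713401 (minus) and Cnot8 at chr11:58092794-58118597 (plus). The remaining genes are Cnot2 at chr10:116485160-116581900 (minus), Cnot3 at chr7:3645247-3661109 (plus), Cnot6l at chr5:96070333-96164198 (minus) and Cnot10 at chr9:114585874-114640220 (minus).

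YTHDF2 reads m6A, which is laid down mostly in the sequence context whose core is often written GGACT, and the mark is known to gather around stop codons. GGACT was therefore searched on the transcript strand of the RefSeq transcript of each subunit. With the whole motif required to lie within 200 bases of the stop codon, it was found in 2 of the 10 subunits, Cnot8 and Cnot11, against 40.9% of 12982 transcripts searched in the same way. In Cnot6 the nearest copy began 200 bases after the stop codon, in the 3' UTR, and so ran past this limit. Cnot11, with the motif near its stop codon, was nonetheless lower in IP (log2 -0.71). In Cnot2 (log2 -0.27) and Cnot9 (log2 -0.24) the nearest copy began 819 and 1066 bases after the stop codon. It began 3250 bases after the stop codon in Cnot6l, which was called depleted. The stretches nearest to the stop codon are shown for Cnot8 and Cnot11, and for Cnot1 and Cnot10, both called depleted, with the motif in capitals.

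Cnot8: gaggatgtGGACTgtgcccag

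Cnot11: aacgtgcaGGACTtgtttata

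Cnot10: ctctgcccGGACTgtgatgct

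Cnot1: ctacgtagGGACTcaggctat

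All 4 stretches lie in coding sequence, at chr11:58117523-58117543 (plus strand) for Cnot8, chr1:39545129-39545149 (plus) for Cnot11, chr9:114597546-114597566 (minus) for Cnot10 and chr8:95723389-95723409 (minus) for Cnot1. The motif begins 55, 127, 308 and 461 bases before the stop codon, in that order. Cnot1 held 11 copies of GGACT, all in coding sequence, and Cnot6 held 11, of which 8 were in the 3' UTR, while Cnot3 held 0. Cnot8, the only subunit with a ratio above 0, had a single copy, the one shown. Over all transcripts searched, the median log2 fold change was 0.18 with GGACT within that distance of the stop codon and -0.04 without it. A match to these letters does not show that the adenosine is methylated, which was not measured in these libraries.

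Other features of the transcripts moved with the ratio over all genes, and the subunits stood in different places for them. GC content of the merged exons had a Spearman correlation of 0.31 with the log2 fold change across 19552 genes, which are not independent replicates and share the 3 libraries. Cnot6 (39.8%), Cnot7 (41.1%) and Cnot6l (41.3%) had less GC than the lower quartile of 45.4%, and Cnot3 (55.4%) more than the upper quartile of 54.4%. With this trend removed, Cnot6 came to 0.14 (adjusted p = 0.158, range over its alternatives 7.95e-09 to 0.552) and Cnot7 to 0.16 (adjusted p = 0.159, range 1.3e-06 to 0.615), so that both changed sign. The log2 fold change of Cnot1 was -1.33 and that of Cnot8 0.27 on this basis.

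Exon density had a Spearman correlation of -0.18 with the log2 fold change over the same genes, whose median went from 0.31 among genes below the lower quartile of exons per kilobase to -0.33 among genes above the upper quartile. The latter group held Cnot1 (5.10 exons per kilobase), Cnot10 (4.60) and Cnot3 (4.54), the subunits with 3 of the 4 lowest log2 fold changes. With the trend in exon density removed, Cnot1 came to -1.23, Cnot10 to -0.90 (no longer past 2-fold) and Cnot3 to -0.60. The remaining subunit of low ratio, Cnot6l, had the fewest exons per kilobase (1.53), and its last exon made up 82.3% of the transcript. Of 9 features set against the log2 fold change among the 10 subunits, GC content gave a Spearman correlation of 0.10 and exons per kilobase one of -0.31. The strongest of the 9 was chosen after its value was seen: the log2 fold change had a Spearman correlation of -0.84 and a Pearson correlation of -0.73 with the length of the coding sequence, from 7134 bases in Cnot1 to 879 bases in Cnot8. Over 15015 genes with a RefSeq coding transcript that Spearman correlation was -0.08. The number of exons of the transcript gave a Spearman correlation of -0.72 among the 10 subunits and of -0.30 over the same 15015 genes. These are descriptions of 10 genes measured in the same 3 libraries.

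**Figure D4:**
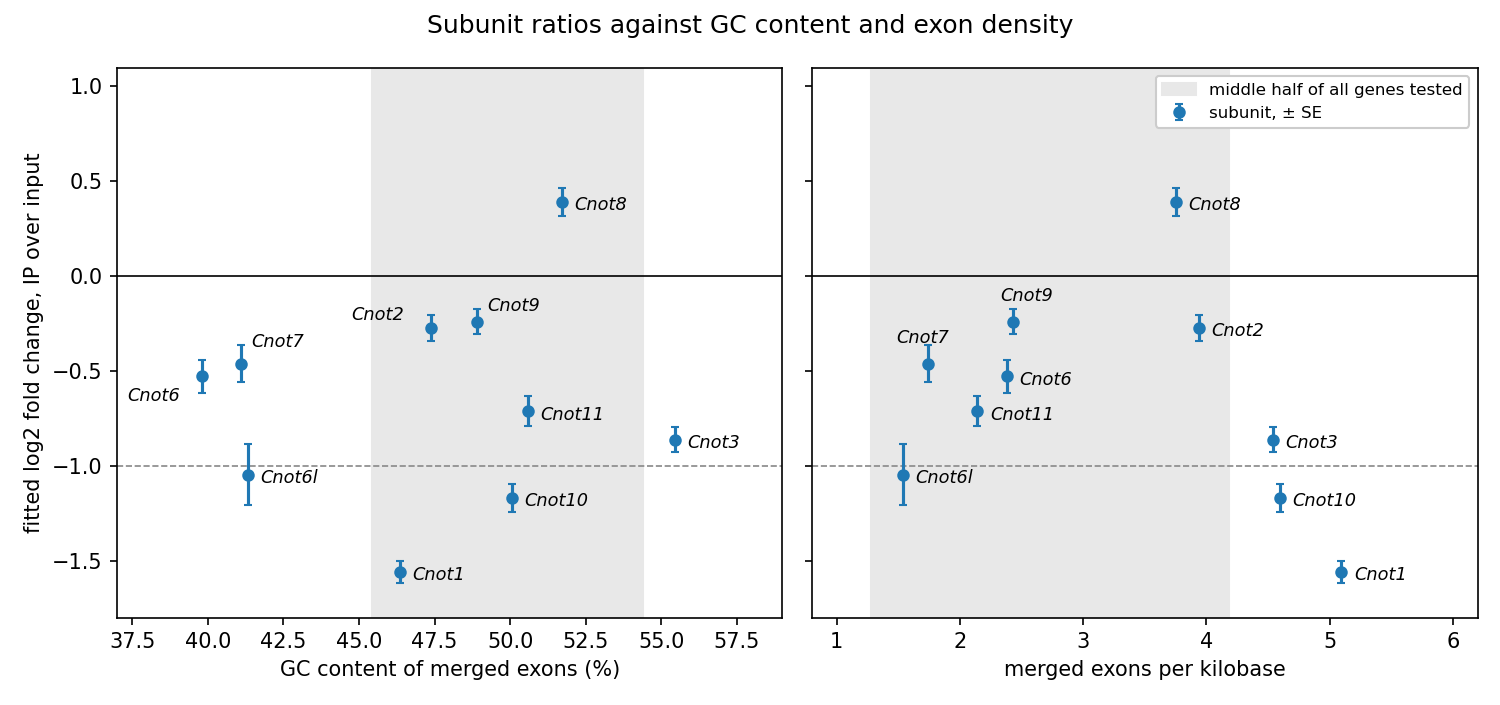
Fitted log2 fold change of IP over input (± SE) for the 10 subunits against GC content of the merged exons in percent (left) and merged exons per kilobase (right), with the middle range between quartiles of all genes tested shaded. Cnot6, Cnot6l and Cnot7 lie at low GC content, and Cnot1, Cnot3 and Cnot10 at high exon density.

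Other factors of poly(A) tail metabolism did not share one direction. Of 16 genes for other deadenylases, CCR4-NOT partners and poly(A) factors, all tested, 1 was enriched and 2 were depleted, with a median log2 fold change of -0.16. At any fold, 5 were higher and 7 lower. The shares over all genes tested were 15.2% enriched, 14.0% depleted, 28.5% higher and 30.1% lower, so that the list held no more strong calls than that background. The enriched gene was Pabpn1, the gene for the nuclear poly(A)-binding protein, which rose from 13074 counts to 51932 and 51161 (3.84-fold higher, log2 1.94 ± 0.0517, edgeR adjusted p = 2.8e-47). The depleted genes were Parn, a poly(A)-specific ribonuclease (log2 -1.32 ± 0.119, edgeR adjusted p = 1.74e-16), and Papolg, a poly(A) polymerase (log2 -1.22 ± 0.0984, edgeR adjusted p = 6.86e-19).

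Among 28 genes for adaptors that bring CCR4-NOT to mRNA and for other mRNA-binding or decay factors, 26 passed the filter. Their median log2 fold change was -0.12. Btg4 had no count in any library, and Nanos2 had 2 counts in IP replicate 1 alone. Enriched genes numbered 4 and depleted genes 3, near the background of 15.2% and 14.0%, and at any fold 8 were higher and 11 lower (background 28.5% and 30.1%). The called genes are given as values and not as a pattern of the list. Ythdf2 itself rose from 3380 counts to 10757 and 9922 (2.98-fold higher, log2 1.57 ± 0.0695, edgeR adjusted p = 4.2e-33). The other enriched genes were Nanos3, with 37 input counts against 136 and 94 (log2 1.59 ± 0.445), Nanos1 (log2 1.14 ± 0.148) and Btg1 (log2 1.09 ± 0.0746). The NANOS proteins bind the NOT module, and BTG1 belongs to the family that binds the CAF1-type nucleases. Caprin1, an RNA-binding protein of stress granules, fell from 19464 counts to 7306 and 7409 (2.72-fold lower), Patl1, a decapping factor, from 2716 to 972 and 1210 (2.56-fold lower), and Zfp36l1, which binds AU-rich elements, from 3942 to 1936 and 1924 (2.10-fold lower).

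Under the alternatives tried, Cnot1 was lower in IP throughout and Cnot8 higher throughout, with log2 fold changes between -1.56 and -1.23 for Cnot1 and between 0.27 and 0.57 for Cnot8. Cnot1 was called depleted under each of the 12 alternatives with a test, and Cnot8 stayed under 2-fold in all of them. With a dispersion fixed at 0.1, far above the 0.00538 estimated from the pair of IP libraries, Cnot1 was the only subunit with an adjusted p under 0.05 (edgeR adjusted p = 0.0302, the highest of its alternatives), and the adjusted p of Cnot8 was 0.688 (edgeR). Of the 10 subunits, 9 were below 0 in the reported fit and under each alternative other than removal of the GC trend, which left 7.

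**Figure D5:**
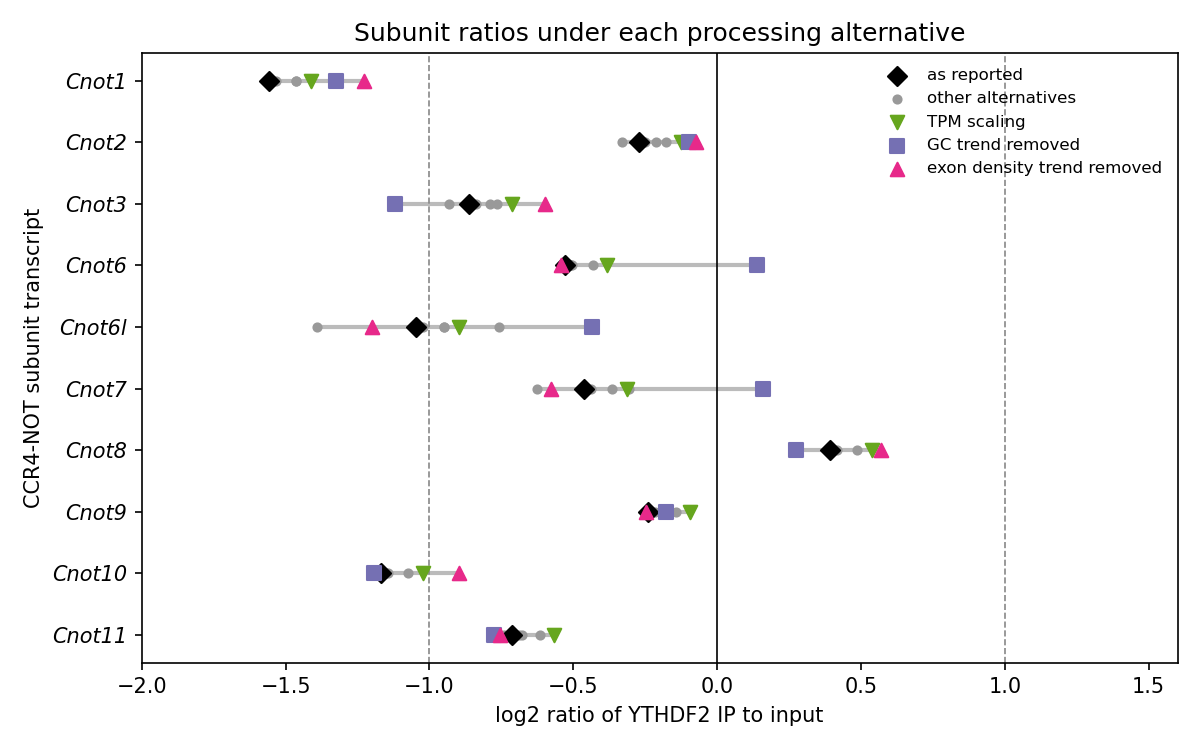
Log2 fold change of IP over input for the 10 subunits under the reported fit and the 14 alternatives, with 1 point for each setting. Cnot1 stays between -1.56 and -1.23 and Cnot8 between 0.27 and 0.57, while Cnot6 and Cnot7 cross 0 (0.14 and 0.16) with the GC trend removed.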

How the data were processed

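The authors aligned the reads to mm10, and the submitters' processing notes name fastp 0.19.4, HISAT2 2.2.1 and DESeq2 1.40.2. The deposited values are raw gene counts. Per the file headers they came from featureCounts 2.0.3 run on RefSeq exons, without strand and with both mates counted singly, so that sampling noise exceeds what the counts imply. The methods describe IP from cleared lysate, and the labels IP of purified RNA. 0 columns of other samples were present. The members and gene lists were chosen with earlier results of these data known. Genes named from the other lists were those called, and Btg4 and Nanos2, which failed the filter. Counts were filtered (filterByExpr), scaled by TMM (0.957 for the input, 1.02 for each IP library) and tested in R 4.3.3 with edgeR 4.0.16 (quasi-likelihood, robust, Benjamini-Hochberg over 19601 genes), with 1 residual degree of freedom. DESeq2 1.42.0 served as an alternative. Single-library log2 ratios used a pseudocount of 0.5. A floor of 3 counts equals 0.0811, 0.0851 and 0.0836 CPM (input, IP replicates 1 and 2). The SE was derived from the F statistic. GC content, exons and motifs came from GRCm38.p6 and its RefSeq annotation. The test was checked on simulated counts. There the input and IP libraries were all given the dispersion of 0.00538, so the check cannot tell how an unreplicated input varies.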

Additional observations from a re-analysis of the deposited data

How the results depend on the processing

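With a dispersion fixed at 0.1, enriched genes numbered 1577 in place of 2973, depleted genes 1531 in place of 2743, and depleted subunits 1 in place of 3, since that setting takes a larger spread than the IP pair shows. With the GC trend removed, Cnot6 (0.14) and Cnot7 (0.16) changed sign, and neither passed as higher (edgeR adjusted p = 0.158 and 0.159). A single IP library leaves no residual degree of freedom, so genes past 2-fold were counted without a test. Leaving out IP replicate 1 or 2 gave 3940 and 4047 genes past 2-fold higher, 3671 and 3636 lower, 3 and 2 subunits lower (Cnot6l was the one lost without IP replicate 2) and 0 and 0 subunits higher. Scaling by TPM made 62.1% of all calls enriched, against 52.0% in the reported fit, and moved the median of all genes by 0.15 on the log2 scale. It left 7 subunits lower at an adjusted p under 0.05, and removal of the GC trend left 6. No subunit was enriched under any of the 14 alternatives. No paired analysis was possible because a single input library stands against both IP libraries. The input was not replicated, so each SE and p-value assumes that it varies like the IP pair. The lowest count of a subunit was 343, for Cnot6l in IP replicate 2, and Cnot6l also had the largest SE (0.162). Whether depth limited its result was not tested.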
